A study of Homo sapiens with 8 samples.

Results

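The genes that detect RNA and DNA in the cytosol, together with the adaptors and kinases that carry their signal, were examined in macrophages derived from THP-1 cells. This set holds 10 genes, chosen by symbol: the sensors IFIH1, DHX58, CGAS, IFI16 and ZBP1, the adaptors MAVS and STING1, the kinases TBK1 and IKBKE, and the exonuclease TREX1. Of these, 9 had a probe set named for them among the 17687 named genes of the array, with 1 probe set each. TREX1 had no probe set named for it in the platform annotation and was not analysed here. Of the 9 measured genes, 8 averaged 6 or more on the log2 scale in some condition, and ZBP1 did not; below 6 a probe set is called near background here.

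THP-1 cells are a line grown from a human monocytic leukaemia. All cells, the untreated ones included, were first turned into macrophages overnight with the phorbol ester PMA at 100 ng/mL. There were 4 conditions of 2 arrays each: epirubicin with LPS (EPI+LPS), epirubicin alone (EPI), LPS alone (LPS) and neither agent (untreated). Epirubicin, an anthracycline that inhibits topoisomerase II, was present for 24 h at a concentration of 0.25 µg/mL. LPS, the bacterial ligand of TLR4, was present for 3 h at 100 ng/mL. By the study's methods, LPS in the EPI+LPS condition was given after the epirubicin treatment, so epirubicin came first. Values are log2 expression values from oligonucleotide arrays, and a difference of 1 between conditions is a 2-fold change. The labels call the 2 arrays of a condition duplicates and do not say whether they came from separate cultures, so the p-values measure the spread between arrays, which may be technical. All values come from 1 cell line, and in total RNA of a culture a change in the number of expressing cells and a change in RNA per cell cannot be told apart.

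Cytosolic RNA is recognised by helicases of the RIG-I family. IFIH1 encodes MDA5, which binds long double-stranded RNA, and DHX58 encodes LGP2, a relative without signalling domains that modulates the other helicases. Both RIG-I and MDA5 signal through MAVS on the outer mitochondrial membrane. Cytosolic DNA is bound by cGAS, the product of CGAS, which makes the second messenger cGAMP, and cGAMP activates STING, the product of STING1, at the endoplasmic reticulum. IFI16 binds DNA in the nucleus and cytosol and can feed into the same route. Both routes converge on the kinases TBK1 and IKKε, the product of IKBKE, which phosphorylate IRF3 and lead to transcription of type I interferon. Type I interferon acts back on the cell through its receptor, and many of the genes it induces carry the interferon-stimulated response element (ISRE) in their promoters. Several of the sensors are themselves interferon-stimulated genes. ZBP1 recognises Z-form nucleic acids and engages RIPK3, and TREX1 degrades DNA in the cytosol.

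Promoters of the measured genes were compared because the genes that responded to LPS differed in direction. RefSeq promoter sequences (GRCh38.p14, 250 bases before to 50 bases after a start site) were given for 6 of the 10 genes: IFIH1, MAVS, TBK1, IKBKE, IFI16 and TREX1. The ISRE core was searched on both strands as GAAA, any 2 bases and GAAA, and it was present in 3.57% of 35116 promoters in the table (1255 promoters). The IFIH1 promoter, chr2:162318635-162318934 on the minus strand, held 3 matches, of which the first 2 overlap each other between positions -159 and -144, counted from the start site, and the third lies at -21 to -12. The promoter of IFI16 at one of its 2 tabled starts, chr1:159009657-159009956 on the plus strand, and that of IKBKE, chr1:206470226-206470525 on the plus strand, held none, nor did the other tabled start of IFI16. The annotated gene IFI16 begins upstream of both, at chr1:158999976, and no sequence there was searched. DHX58 and STING1, which also responded to LPS, had no sequence given, so no comparison by direction of response can be drawn. These 3 sequences are shown, 5′ to 3′ in the sense of the gene with ISRE core matches in capitals, because IFIH1 was higher and IFI16 lower with LPS, and IKBKE changed by 0.01 with LPS alone (log2).
IFIH1: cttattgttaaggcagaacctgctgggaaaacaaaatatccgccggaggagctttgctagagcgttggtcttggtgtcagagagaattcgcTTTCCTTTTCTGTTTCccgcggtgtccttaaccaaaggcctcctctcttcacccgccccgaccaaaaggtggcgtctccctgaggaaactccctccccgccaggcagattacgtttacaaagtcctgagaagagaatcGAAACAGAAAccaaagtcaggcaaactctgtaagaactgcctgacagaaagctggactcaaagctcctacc
IFI16: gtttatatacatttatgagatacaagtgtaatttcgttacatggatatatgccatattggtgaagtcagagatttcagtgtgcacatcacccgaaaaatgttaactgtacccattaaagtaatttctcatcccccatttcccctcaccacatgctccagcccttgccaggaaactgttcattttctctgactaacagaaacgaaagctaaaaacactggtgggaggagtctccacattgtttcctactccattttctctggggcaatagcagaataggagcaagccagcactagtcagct
IKBKE: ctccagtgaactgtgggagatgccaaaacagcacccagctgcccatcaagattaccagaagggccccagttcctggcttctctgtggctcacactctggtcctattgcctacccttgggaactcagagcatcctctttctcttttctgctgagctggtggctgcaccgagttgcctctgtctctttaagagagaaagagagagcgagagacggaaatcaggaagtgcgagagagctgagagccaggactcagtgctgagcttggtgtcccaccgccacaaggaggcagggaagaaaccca
IFIH1 was thus the 1 gene of the 6 with an ISRE core in this window. The window of IFIH1 also held 1 match to the kappaB consensus, which 11.3% of promoters hold, and the other 5 genes held none. The GAS motif TTCNNNGAA, present in 7.66% of promoters, was found in none of the 6. A match is a description of the letters, and the absence of one says nothing of binding elsewhere.

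Of the 21448 gene probe sets tested, 17709 carried 1 symbol. Array medians lay between 5.75 and 5.84, duplicates correlated at 0.985 to 0.987 over all probe sets, and arrays of different conditions at 0.947 to 0.984. No array stood apart. The 10 macrophage marker genes all had a mean of at least 6. The lowest, CD163, averaged 6.04 and had 5.83 and 5.73 on the EPI arrays. Of 7 lymphocyte markers, 2 reached 6, CD79A at 8.15 and NKG7 at 6.62, and the list's median was 3.9. Of 7 fibroblast or epithelial markers none reached 6.

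With LPS 4 of the 9 genes passed the call rule. The RNA sensors IFIH1 and DHX58 rose, the DNA sensor IFI16 and the adaptor STING1 fell, and this held both with and without epirubicin. MAVS, the adaptor of the RNA route, was lower with LPS but short of a 2-fold change. A gene was called when limma gave an unadjusted p of at most 0.01 together with a change of at least 2-fold. The study applied this threshold to its epirubicin comparisons on these arrays. For its set of LPS genes the study used stricter limits on the fold change and the false discovery rate. By that rule 4 of 9 genes (44.4%) were called in LPS against untreated cells, where 11.7% of all probe sets were, and 4 of 9 (44.4%) in EPI+LPS against EPI cells, where 12.1% of all probe sets were. All of these calls also had an adjusted p (Benjamini-Hochberg over all 21448 probe sets) of at most 0.05. Of the 9 genes, 2 rose and 2 fell in each comparison. Among all probe sets 5.46% rose and 6.59% fell in EPI+LPS against EPI cells, and 5.4% rose and 6.28% fell in LPS against untreated cells. Arrays did not overlap for 8 of the 9 genes in EPI+LPS against EPI cells, 4 higher and 4 lower, where 23.6% of all probe sets were higher and 28.7% lower without overlap. They did not overlap for 7 in LPS against untreated cells, 3 higher and 4 lower, where 23.1% of all probe sets were higher and 29.7% lower without overlap.

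Of the 9 genes, 1 had an epirubicin change that was called, IFIH1, and only in LPS-stimulated cells. In EPI+LPS against LPS cells 1 of 9 genes was called (11.1%), where 2.66% of all probe sets were called, 1.25% as higher and 1.4% as lower, and no gene reached an adjusted p of at most 0.05, which 0.103% of all probe sets did. DHX58 and IKBKE had an unadjusted p of at most 0.05 there, so that 3 of 9 genes did, against 10.9% of all probe sets. The arrays of EPI+LPS and LPS cells did not overlap for 8 of the 9 genes, with 7 higher and 1 lower. Such non-overlap is common with 2 arrays a condition: 21.3% of all probe sets were higher and 20.3% lower without overlap. The median change over the 9 genes was 0.4 on the log2 scale, against 0.01 over all probe sets. In EPI against untreated cells 0 of 9 genes were called by limma, where 2.26% of all probe sets were, 0 had an unadjusted p of at most 0.05, where 10.2% of all probe sets did, and the median change was 0.14. Arrays did not overlap for 4 genes, TBK1, IKBKE and CGAS higher and DHX58 lower, where 20.5% of all probe sets were higher and 20.9% lower without overlap.

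**Figure D1:**
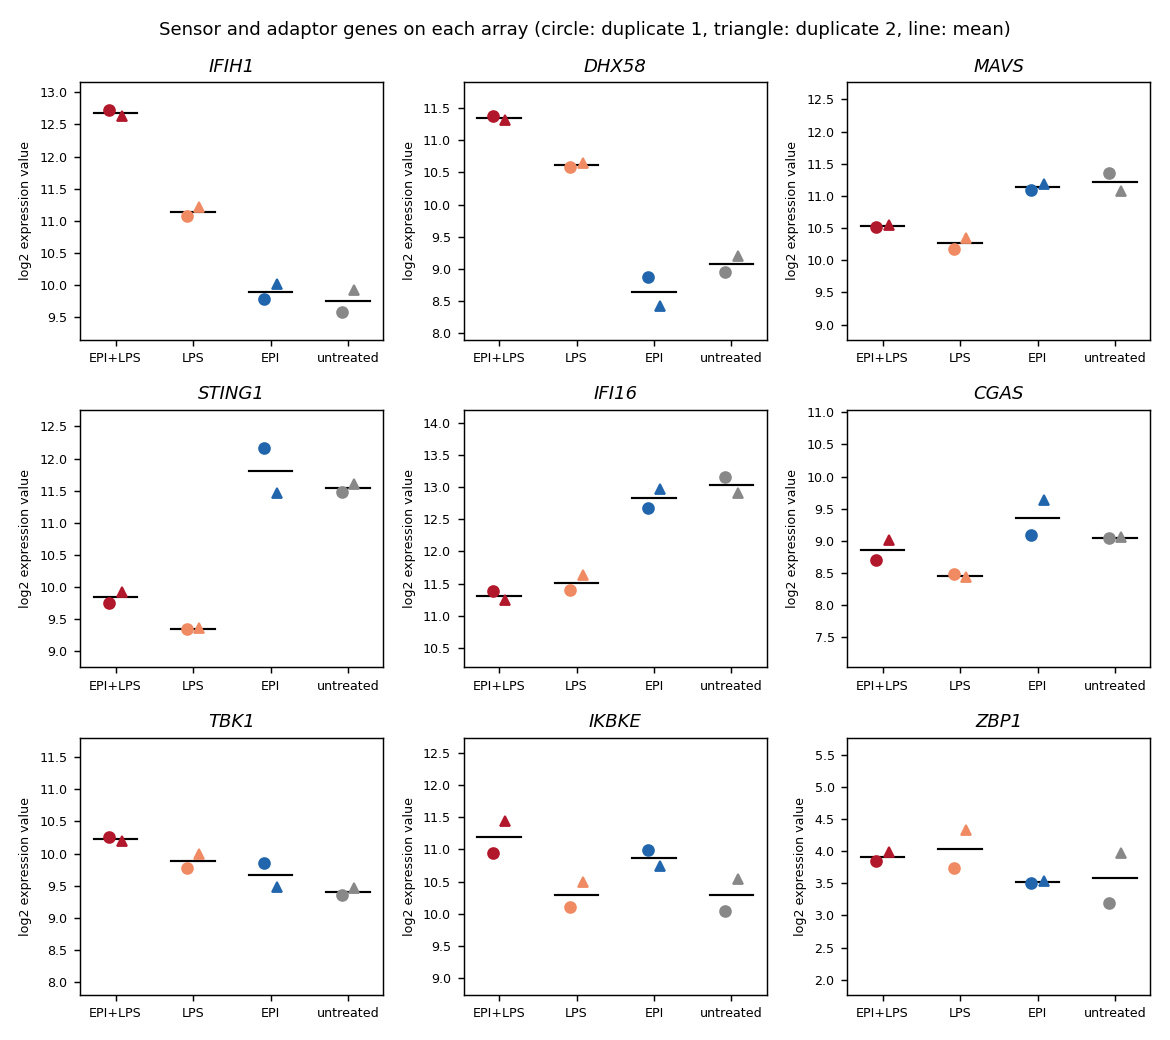
Log2 expression value of the 9 measured genes (vertical axis, 4 log2 units in every panel) on each of the 8 arrays, for EPI+LPS, LPS, EPI and untreated cells from left to right. Circles are duplicate 1, triangles duplicate 2 and lines the mean of both. IFIH1 and DHX58 were highest in EPI+LPS cells and lowest without LPS, STING1 and IFI16 were high without LPS and low with it, and ZBP1 stayed below 5 throughout.

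IFIH1 changed most with epirubicin. Its log2 values were 12.73 and 12.63 on the EPI+LPS arrays, against 11.08 and 11.21 on the LPS arrays. They were 9.78 and 10.02 on the EPI arrays, against 9.58 and 9.93 on the untreated arrays. Both EPI+LPS arrays lay above both LPS arrays, and all 4 lay above the arrays without LPS, among which EPI and untreated values overlapped. Epirubicin raised IFIH1 in LPS-stimulated cells by 1.53 ± 0.24 (log2, SE, limma), a 2.9-fold change with a 95% interval of 0.98 to 2.09. This change had an unadjusted p of 0.000195 (rank 50 of 21448) and an adjusted p of 0.0815, so it was called by the study's rule and missed an adjusted p of 0.05. Without LPS the change was 0.14 ± 0.24 (95% interval -0.41 to 0.7, adjusted p = 0.89).

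The difference between the 2 epirubicin effects on IFIH1 was itself tested. The effect was 1.39 ± 0.34 (log2, SE) larger with LPS than without (95% interval 0.61 to 2.17, unadjusted p = 0.00339, adjusted p = 0.543), which was called, as were 1.62% of all probe sets. The unadjusted p of this difference was at most 0.05 for IFIH1 and DHX58, 2 of the 9 genes, against 7.3% of all probe sets. This call was lost without any one of 4 arrays: without untreated duplicate 2 the difference was 1.22, without LPS duplicate 1 it was 1.33, without EPI duplicate 1 it was 1.27, and without EPI+LPS duplicate 1 it was 1.34. The same contrast is the difference between the LPS effects. LPS raised IFIH1 6.89-fold in epirubicin-treated cells (2.78 ± 0.24, adjusted p = 0.000209) and 2.63-fold in cells without epirubicin (1.39 ± 0.24, adjusted p = 0.00773). The 4 comparisons are built from the same 8 arrays and are not independent of each other.

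DHX58 followed LPS as IFIH1 did, with a smaller change under epirubicin. It had 11.38 and 11.32 on the EPI+LPS arrays, against 10.59 and 10.64 on the LPS arrays, and 8.87 and 8.42 on the EPI arrays, against 8.95 and 9.2 on the untreated arrays. The 4 conditions did not overlap, in the order EPI+LPS, LPS, untreated and EPI from high to low. LPS raised it 6.53-fold with epirubicin (2.71 ± 0.25, adjusted p = 0.000295) and 2.9-fold without (1.53 ± 0.25, adjusted p = 0.00589). The epirubicin change was 0.74 ± 0.25 with LPS (95% interval 0.16 to 1.31, adjusted p = 0.347), and -0.43 ± 0.25 without it (95% interval -1.01 to 0.14, adjusted p = 0.606), so neither was called. Their difference was 1.17 ± 0.35 (95% interval 0.36 to 1.99, unadjusted p = 0.0103, adjusted p = 0.609) and lay just outside the threshold of 0.01. Without EPI duplicate 1 it was 1.4 and was called.

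MAVS, the adaptor of this route, was lower in all arrays with LPS than in all arrays without it. It had 10.51 and 10.54 on the EPI+LPS arrays, against 11.09 and 11.18 on the EPI arrays. It had 10.17 and 10.35 on the LPS arrays, against 11.36 and 11.08 on the untreated arrays. The change with LPS was -0.96 ± 0.23 without epirubicin (95% interval -1.49 to -0.43, adjusted p = 0.0332), which fell short of 2-fold and was not called. It passed 2-fold and was called without untreated duplicate 2 (-1.1) and without LPS duplicate 2 (-1.05). With epirubicin the change was -0.61 (adjusted p = 0.14). The epirubicin change in MAVS was 0.26 with LPS (95% interval -0.27 to 0.79) and -0.08 without it (95% interval -0.62 to 0.45).

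STING1, the adaptor of the DNA route, had the largest LPS change of the 9 genes in cells without epirubicin. It had 9.76 and 9.92 on the EPI+LPS arrays, against 12.16 and 11.46 on the EPI arrays, and 9.35 and 9.36 on the LPS arrays, against 11.48 and 11.6 on the untreated arrays. All 4 arrays with LPS lay below all 4 without it, and EPI and untreated values overlapped. STING1 fell 3.92-fold with LPS in epirubicin-treated cells (-1.97 ± 0.28, adjusted p = 0.00285) and 4.54-fold in cells without epirubicin (-2.18 ± 0.28, adjusted p = 0.00169). Under epirubicin it differed by 0.48 ± 0.28 with LPS (95% interval -0.16 to 1.13, adjusted p = 0.584) and by 0.27 ± 0.28 without it (95% interval -0.37 to 0.91, adjusted p = 0.799).

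IFI16, the DNA-binding sensor, fell with LPS in both settings. It had 11.38 and 11.25 on the EPI+LPS arrays, against 12.68 and 12.97 on the EPI arrays, and 11.4 and 11.63 on the LPS arrays, against 13.15 and 12.91 on the untreated arrays. The LPS change was -1.51 both with epirubicin (2.85-fold, adjusted p = 0.00505) and without it (2.86-fold, adjusted p = 0.00543). Its epirubicin change was -0.2 with LPS (adjusted p = 0.827) and -0.2 without it (adjusted p = 0.83), and the 95% interval of the difference between them was -0.79 to 0.79.

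CGAS, the enzyme upstream of STING1, was lower on the arrays with LPS without reaching the threshold. It had 8.7 and 9.02 on the EPI+LPS arrays, against 9.09 and 9.63 on the EPI arrays, and 8.48 and 8.44 on the LPS arrays, against 9.04 and 9.06 on the untreated arrays. The LPS change was -0.5 with epirubicin (adjusted p = 0.293) and -0.59 ± 0.27 without it (adjusted p = 0.223). The epirubicin change was 0.4 ± 0.27 with LPS (95% interval -0.21 to 1.01) and 0.31 without it (95% interval -0.3 to 0.92).

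**Figure D2:**
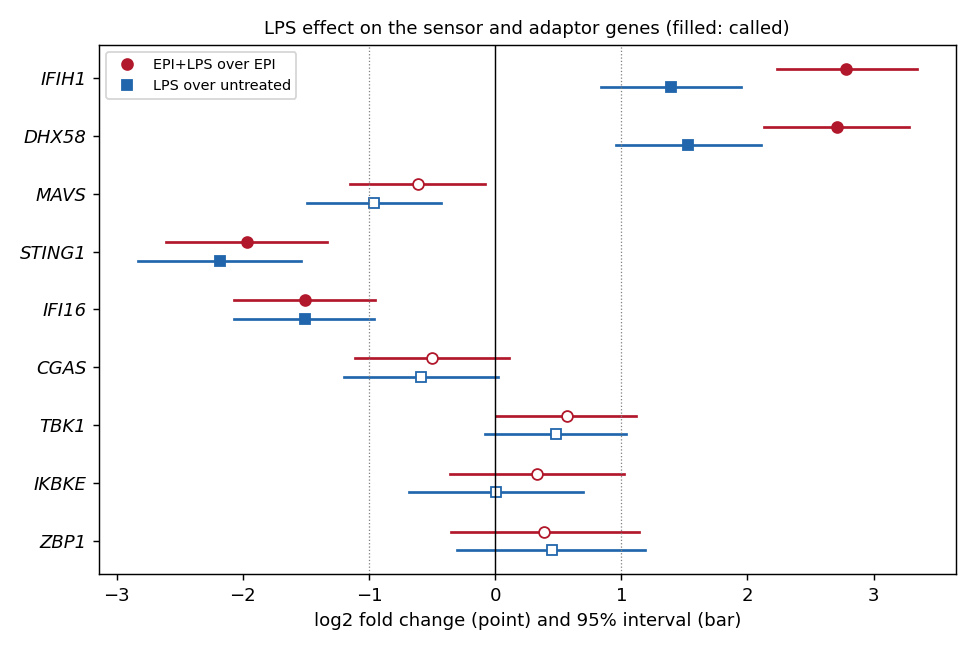
Log2 fold change of the 9 genes with LPS (horizontal axis), with circles for EPI+LPS over EPI and squares for LPS over untreated, 95% intervals as bars, filled symbols for called changes and dotted lines at a 2-fold change. IFIH1 and DHX58 lie to the right and STING1 and IFI16 to the left in both comparisons, and the IFIH1 and DHX58 points lie further right in epirubicin-treated cells.

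None of the changes in the kinases shared by both routes was called. IKBKE had 10.94 and 11.44 on the EPI+LPS arrays, against 10.1 and 10.5 on the LPS arrays, and 10.99 and 10.74 on the EPI arrays, against 10.04 and 10.54 on the untreated arrays. All 4 arrays with epirubicin lay above all 4 without it. The epirubicin change was 0.89 ± 0.3 with LPS (1.86-fold, 95% interval 0.2 to 1.58, unadjusted p = 0.0171, adjusted p = 0.342) and 0.57 ± 0.3 without it (95% interval -0.12 to 1.26, adjusted p = 0.567), and neither was called. The 2 epirubicin effects differed by 0.32 (95% interval -0.65 to 1.3). The LPS change in IKBKE was 0.33 with epirubicin (adjusted p = 0.564) and 0.01 without it (adjusted p = 0.992).

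TBK1 had 10.26 and 10.2 on the EPI+LPS arrays, 9.78 and 10 on the LPS arrays, 9.85 and 9.48 on the EPI arrays and 9.35 and 9.47 on the untreated arrays. The EPI+LPS arrays were the highest, and LPS and EPI values overlapped. No change in TBK1 was called: the epirubicin change was 0.34 with LPS (adjusted p = 0.665) and 0.25 without it (adjusted p = 0.786), and the LPS change was 0.57 with epirubicin (adjusted p = 0.191) and 0.48 without it (adjusted p = 0.281).

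ZBP1 was near background on all 8 arrays. Its values were 3.84 and 3.98 on the EPI+LPS arrays, 3.73 and 4.33 on the LPS arrays, 3.51 and 3.53 on the EPI arrays and 3.2 and 3.97 on the untreated arrays. Its duplicates differed by up to 0.77, more than those of any other of the 9 genes, and none of its changes was called. A change at this level is uncertain in size.

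**Figure D3:**
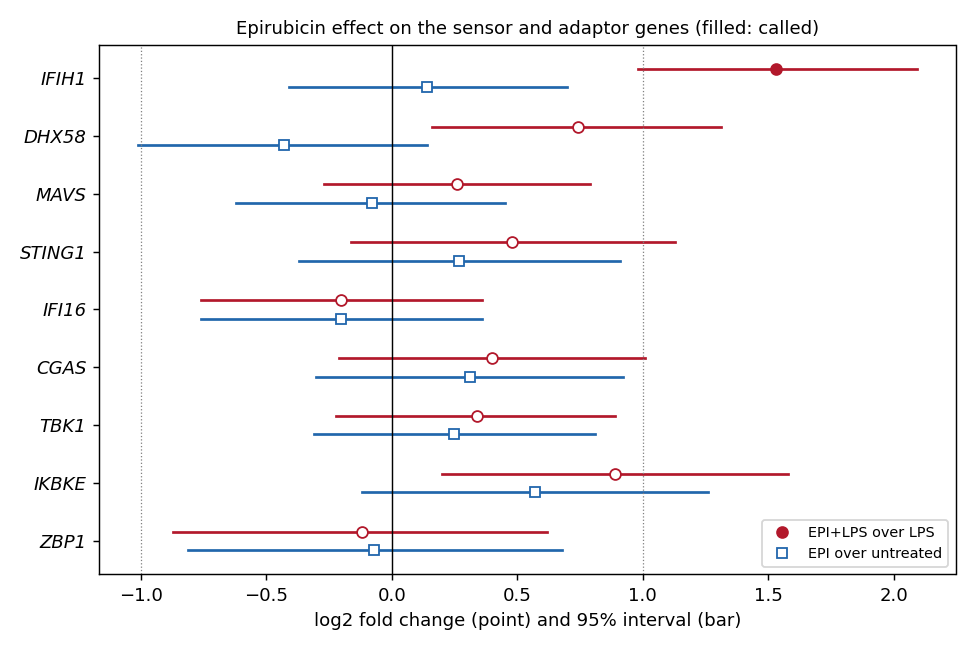
Log2 fold change of the 9 genes with epirubicin (horizontal axis), with circles for EPI+LPS over LPS and squares for EPI over untreated, 95% intervals as bars, filled symbols for called changes and dotted lines at a 2-fold change. The IFIH1 point for EPI+LPS over LPS, at 1.53, is the 1 filled symbol, and the intervals of DHX58 and IKBKE in that comparison lie above 0 without being called.

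Genes that work with these sensors were grouped in lists, and their counts stand beside the shares of all probe sets called: 1.25% higher and 1.4% lower for epirubicin with LPS, 2.26% either way for epirubicin without LPS, 5.4% higher and 6.28% lower for LPS alone, and 5.46% higher and 6.59% lower for LPS with epirubicin. Of 19 partners of RNA sensing, 15 were measured, and none was called for epirubicin in LPS-stimulated cells, with a median change of 0.02. RIGI, which encodes the sensor RIG-I, had 11.53 and 11.27 in EPI+LPS cells, against 10.47 and 10.41 in LPS cells, a difference of 0.96 ± 0.24 (adjusted p = 0.206) that lay just under 2-fold. ZC3HAV1, which encodes the zinc finger antiviral protein, differed by 0.9 (adjusted p = 0.22) and CYLD, a deubiquitinase, by 0.86 (adjusted p = 0.342). With LPS alone 5 of the 15 rose and 2 fell, where 5.4% of all probe sets rose and 6.28% fell. RIGI rose by 2.49 (adjusted p = 0.000349), TRAF3, a ubiquitin ligase downstream of MAVS, by 1.74 (adjusted p = 0.00228) and TANK, a scaffold of TBK1, by 1.49 (adjusted p = 0.00657), as did CYLD and ZC3HAV1, whereas TRIM14, a partner of MAVS, fell by 2.05 (adjusted p = 0.00199) and TBKBP1, a TBK1-binding protein, fell by 2.01 (adjusted p = 0.0124). In epirubicin-treated cells LPS raised 6, the same 5 and TICAM1, the adaptor TRIF (1.75, adjusted p = 0.00894), and lowered TRIM14. TICAM1 changed by 1.04 with LPS alone (adjusted p = 0.0766), near background and not called. TBKBP1 changed by -0.75 with LPS in epirubicin-treated cells (adjusted p = 0.282), which was not called.

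All 18 partners of DNA sensing were measured. With LPS alone 0 of the 18 rose by the call rule and 3 fell, where 5.4% of all probe sets rose and 6.28% fell. SLC19A1, a folate carrier that also imports cyclic dinucleotides, fell by 3.02 (adjusted p = 0.000269), PYCARD, the inflammasome adaptor ASC, fell by 2.16 (adjusted p = 0.00136), and MNDA, a relative of IFI16, fell by 1.81 (adjusted p = 0.0227). For epirubicin in LPS-stimulated cells 1 of 18 was called, where 2.66% of all probe sets were, and a single call is not read as a result about the list. It was TRIM56, a ubiquitin ligase that acts on STING and cGAS. It had 7.77 and 6.97 in EPI+LPS cells, against 5.62 and 6.2 in LPS cells, a difference of 1.46 ± 0.43 (adjusted p = 0.28). The list's median was 0.05. Without LPS TRIM56 had 5.02 and 5.78 in EPI cells, against 5.9 and 6.78 in untreated cells (-0.94, adjusted p = 0.509), which was not called. The difference between the epirubicin effects on TRIM56 was 2.4 (adjusted p = 0.575). It was the 1 call of 18 for that contrast, in which 1.62% of all probe sets were called. In EPI against untreated cells SLC19A1 fell by 1.56 (adjusted p = 0.154), the 1 call of 18 in that comparison, where 2.26% of all probe sets were called. LPS in epirubicin-treated cells raised 1 of the 18, TRIM56, by 1.97 (adjusted p = 0.022). It lowered 3, SLC19A1, PYCARD and MNDA, where 5.46% of all probe sets rose and 6.59% fell.

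Of 13 nucleases and other genes that clear nucleic acids 11 were measured, and none was called for epirubicin with LPS (median 0.08). The endolysosomal ribonuclease RNASET2 had 15.4 and 15.5 in EPI+LPS cells, against 14.7 and 14.68 in LPS cells (0.76 ± 0.22, adjusted p = 0.27). LPS alone raised PLD4, a lysosomal exonuclease, by 1.15 (adjusted p = 0.0222), and SAMHD1, which hydrolyses deoxynucleotides, fell by 1.01 (adjusted p = 0.0221). In epirubicin-treated cells the 1 call with LPS was RNASEH2A, the catalytic subunit of ribonuclease H2, which fell by 1.32 (adjusted p = 0.0201). With LPS alone RNASEH2A changed by -0.99 (adjusted p = 0.0616), just short of 2-fold, and was not called.

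Downstream of the kinases, 7 of 9 interferon regulatory factor and STAT genes were measured. All 7 had a positive epirubicin change in LPS-stimulated cells, with a median of 0.72, and 0 were called by limma, 2 with an unadjusted p of at most 0.05. The largest was IRF5 at 1.17 ± 0.39 (adjusted p = 0.327), with 6.96 and 7.59 in EPI+LPS cells, against 5.61 and 6.6 in LPS cells. IRF3, the factor that TBK1 phosphorylates, was near background in both conditions, at 4.97 and 5.51 in EPI+LPS cells, against 4.78 and 4.04 in LPS cells. LPS raised IRF8, a myeloid factor, by 3.12 with epirubicin (adjusted p = 0.000599) and by 2.12 without it (adjusted p = 0.00464), and IRF9 by 1.61 with epirubicin (adjusted p = 0.0354).

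Type I interferon itself gave little signal on these arrays. Of 12 interferon and receptor genes, 11 were measured, and 0 were called by limma in any comparison. IFNB1 had 4.38 and 4.14 in EPI+LPS cells, against 3.5 and 3.15 in LPS cells, and 3.71 and 3.35 in EPI cells, against 3.65 and 2.88 in untreated cells. The difference with epirubicin in LPS-stimulated cells was 0.93 ± 0.32 (unadjusted p = 0.0179, adjusted p = 0.346), at a level near background where its size is uncertain. The receptor subunit IFNAR1 had 13.33 and 13.23 in EPI+LPS cells, against 12.73 and 12.9 in LPS cells (adjusted p = 0.513).

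Interferon-stimulated genes, which type I interferon can induce, were higher with epirubicin in LPS-stimulated cells. Whether the cytosolic sensors or another route raised them was not tested. Of the 18 listed and measured, 11 rose by the call rule, where 1.25% of all probe sets did, and 16 were higher without overlap, where 21.3% of all probe sets were. All 18 had a positive change, with a median of 1.27 against 0.01 over all probe sets, although 0 reached an adjusted p of at most 0.05 in limma and 14 had an unadjusted p of at most 0.05. The protease USP18, a brake on the interferon receptor, had 9.03 and 8.86 in EPI+LPS cells, against 7.16 and 6.09 in LPS cells, a difference of 2.32 ± 0.4 (adjusted p = 0.101). OAS2, which makes the activator of RNase L, rose by 1.37 (adjusted p = 0.108), HERC5, the ISG15 ligase, by 1.5 (adjusted p = 0.145), and the exonuclease ISG20 by 1.6 (adjusted p = 0.147). Without LPS 2 of 18 rose, USP18 by 1.43 (adjusted p = 0.31) and IFIT2 by 1.42 (adjusted p = 0.22, near background), where 2.26% of all probe sets were called in either direction, and the median was 0.39. With LPS alone 8 rose and 1 fell. OASL rose most, by 6.74 (adjusted p = 1.09e-05), then IFIT2 by 3.68 (adjusted p = 0.000203) and IFIT1 by 3.34 (adjusted p = 0.000522). OAS1 fell by 2.15 (adjusted p = 0.00449), and in epirubicin-treated cells LPS raised 12. The difference between the epirubicin effects was called for 1 of 18, ISG20, at 1.93 (adjusted p = 0.535), where 1.62% of all probe sets were called. The list was chosen with earlier results of these arrays known, so its direction is a description and not separate evidence.

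Promoters of 13 of these 18 genes were given, and 12 of the 13 genes held an ISRE core, as IFIH1 did. A gene was counted where any of its tabled promoters held a match, and genes not measured on the arrays were included. An ISRE core was found in 2 of 18 RNA sensing partners and 2 of 15 DNA sensing partners. None was found in the clearance genes (0 of 12) or the interferon regulatory factors and STATs (0 of 5). Among interferons and receptors 4 of 10 genes held one (IFNA1, IFNL1, IFNL2 and IFNL3), and among ZBP1 partners 2 of 5 (RIPK1 and CASP8). The 3.57% over all promoters counts single promoters and not genes, so these counts are not on the same footing. The match nearest the start site is shown with its flanks, match in capitals and in the sense of the gene, for IFIH1 and for the 4 called genes with a match that had the smallest p for epirubicin with LPS.
IFIH1: agagaatcGAAACAGAAAccaaagtc
HERC5: acattatgTTTCGTTTTCcactggag
ISG20: acaaactaGAAACTGAAAcagggtcg
OAS3: ccgggcggGAAAACGAAAccagaaat
RSAD2: gtttcaacTTTCAGTTTCacatgtgg
On GRCh38.p14 these stretches are chr2:162318688-162318713 on the minus strand, and chr4:88457037-88457062, chr15:88638939-88638964, chr12:112938454-112938479 and chr2:6877624-6877649 on the plus strand. In HERC5 and RSAD2 the match reads on the opposite strand. OAS3 rose by 1.54 (adjusted p = 0.155) and RSAD2, which encodes viperin, by 1.48 (adjusted p = 0.173) in EPI+LPS against LPS cells.

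**Figure D4:**
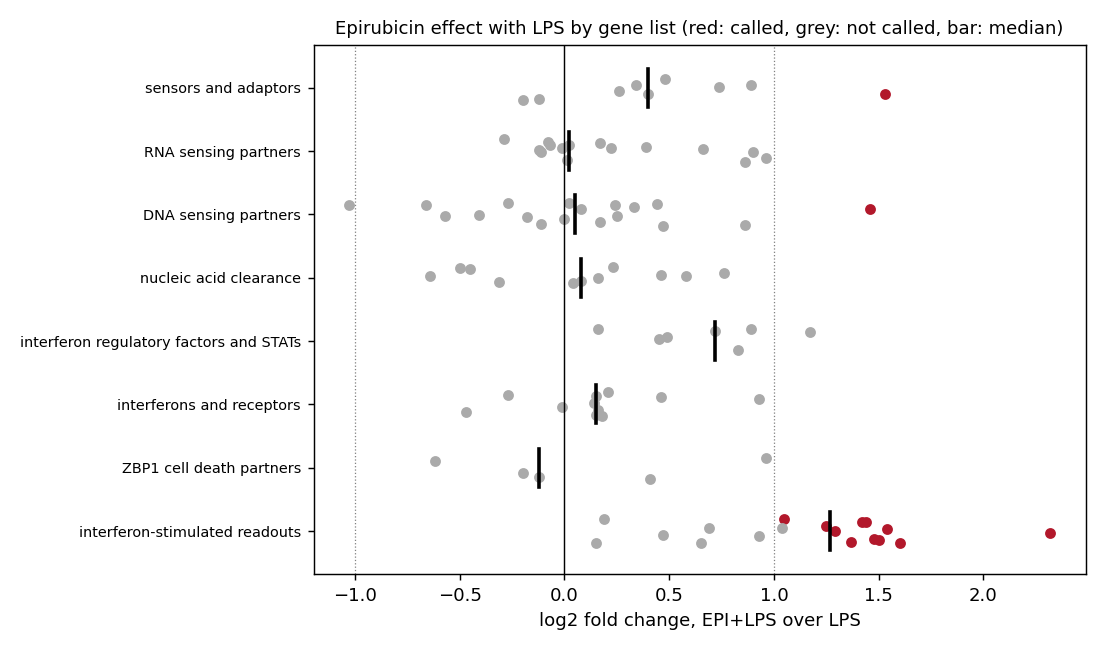
Log2 fold change in EPI+LPS over LPS cells (horizontal axis) of every measured gene, by list, with called genes in red, others in grey, a black bar at each list's median and dotted lines at a 2-fold change. The interferon-stimulated genes, labelled readouts, are spread around a median of 1.27 with 11 called. The sensors and adaptors lie around 0.4 with IFIH1 called, and the RNA and DNA sensing partners around 0.02 and 0.05.

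The cell death partners of ZBP1 were measured for 5 of 6 genes, and none was called for epirubicin with LPS. LPS alone raised CFLAR, an inhibitor of caspase-8, by 1.57 (adjusted p = 0.00361), whereas MLKL, the executor of necroptosis, fell by 2.05 (adjusted p = 0.0277) and FADD, a death receptor adaptor, fell by 1.37 (adjusted p = 0.0464). In epirubicin-treated cells LPS raised CFLAR by 1.83 (adjusted p = 0.00155), and CASP8, the initiator caspase, fell by 1.47 (adjusted p = 0.00841) and MLKL fell by 1.64 (adjusted p = 0.0625).

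One macrophage marker was also called for epirubicin. CD14, the LPS co-receptor among the macrophage markers, differed by -2.01 (log2) between EPI+LPS and LPS cells (limma, adjusted p = 0.0463) and by -1.04 between EPI and untreated cells (adjusted p = 0.247). The other macrophage markers ran from -0.42 for FCER1G to 0.36 for CSF1R between EPI+LPS and LPS cells. LPS alone lowered CD14 by 1.76 (adjusted p = 0.00312) and CSF1R by 1.32 (adjusted p = 0.00655). It raised CD79A, listed as a lymphocyte marker, by 1.36 (adjusted p = 0.0295). The mean over the 10 macrophage markers was 14.32 to 14.37 on the EPI+LPS arrays, 14.51 to 14.55 on the LPS arrays, 14.59 to 14.72 on the EPI arrays and 14.76 to 14.78 on the untreated arrays. The part of these levels in the changes of the sensors was not tested.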

How the data were processed

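Total RNA of 8 samples was hybridised to Clariom S HT arrays, and the authors deposited log2 expression values per probe set, normalized across the arrays. The study's methods name signal space transformation with RMA in the Transcriptome Analysis Console, and the submitters' processing notes name RMA. Scanner intensities were not used. Of 24351 rows, 2903 control rows were left out and 21448 gene probe sets tested, of which 3739 had no gene symbol. Samples were grouped by the epirubicin and LPS doses in their titles. A linear model over the 4 conditions and all 8 arrays was fitted with limma 3.58.1 in R 4.3.3 (lmFit and eBayes, 4 residual and 4.25 prior degrees of freedom), with 5 contrasts: the epirubicin effect with and without LPS, the LPS effect with and without epirubicin, and the difference of the epirubicin effects. Tests were two-sided. A probe set was called where the unadjusted p did not exceed 0.01 and the change reached 2-fold. Benjamini-Hochberg adjustment ran over all 21448 probe sets in each contrast. The script was tested on simulated data. With 2 arrays a condition, the number of arrays limits the precision.

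For a gene with several probe sets, the one with the highest mean over the arrays was used. Of each further list, up to 4 genes with the smallest p for epirubicin with LPS, up to 4 for LPS alone, and all called genes where 5 or fewer were called could be named. The genes and the lists were chosen with earlier results of these data known. Alternatives were another prior variance, other thresholds, only the arrays compared, quantile normalization, median centring, a filter at a log2 value of 6, the duplicate number as a block, the mean of all probe sets of a gene, and leaving out each array. Promoter sequences and motif counts came from RefSeq (GRCh38.p14).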

Additional observations from a re-analysis of the deposited data

Results flagged for a closer look

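The epirubicin effect on IFIH1 differed between cells with and without LPS. It was 1.53 with LPS and 0.14 without it on the log2 scale, a difference of 1.39 that passed the call rule of the test of the difference itself (limma, unadjusted p = 0.00339) with an adjusted p of 0.543. As given above, that call was lost when any of 4 arrays was left out singly. For DHX58 the epirubicin change was 0.74 with LPS, where both arrays were higher, and -0.43 without it, where both arrays were lower. The difference of 1.17 had an unadjusted p of 0.0103 (adjusted p = 0.609) and missed the call rule. Conditions of 2 arrays are too small for the test of an extreme value within a condition, which needs at least 4.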

How the results depend on the processing

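Direction was kept for the called changes of IFIH1, DHX58, IFI16 and STING1 under all alternatives run. IFIH1 with epirubicin and LPS stayed called except where an adjusted p of at most 0.05 was required, and its adjusted p was 0.000231 with a mean-dependent robust prior, 0.031 with dim probe sets left out and 0.276 with only the arrays compared. Without each array in turn it changed by 1.47 to 1.6 (adjusted p 0.142 to 0.307).

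At an adjusted p of at most 0.05 the calls were 22 probe sets and 0 of the 9 genes for epirubicin with LPS, 3 probe sets for epirubicin without LPS, and 1 probe set and 0 genes for the difference of the effects. At an unadjusted p of at most 0.05 they were 2328 probe sets and 3 genes, 2198 probe sets, and 1565 probe sets and 2 genes in those comparisons, and 5096 and 5383 probe sets for LPS without and with epirubicin. The difference of the effects called 2 genes with the robust prior and with dim probe sets left out (DHX58 besides IFIH1). Leaving out each array, it called 0 to 1 genes. The cause of these changes was not tested, other than the threshold itself.

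Small changes turned sign when single arrays were left out. The ranges were -0.42 to 0.18 for ZBP1 with epirubicin and LPS. For epirubicin without LPS they were -0.03 to 0.32 for IFIH1, -0.22 to 0.06 for MAVS, -0.45 to 0.32 for ZBP1 and -0.08 to 0.62 for STING1, and for LPS alone -0.24 to 0.26 for IKBKE. For the difference of the effects they were -0.1 to 0.27 for TBK1, -0.44 to 0.33 for ZBP1, -0.14 to 0.15 for IFI16, -0.14 to 0.57 for STING1 and -0.18 to 0.36 for CGAS. Quantile normalization gave -0.02 for IFI16 there.

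The duplicate numbers did not pair the arrays: differences between duplicates correlated at -0.0094 to 0.0235 between conditions. With the replicate block, 1, 0, 4, 4 and 1 of the 9 genes were called for epirubicin with LPS, epirubicin without LPS, LPS without epirubicin, LPS with epirubicin and the difference, and 573, 483, 2502, 2588 and 334 probe sets. No call among the 9 genes changed. Each of them had 1 probe set, so the mean over probe sets gave the values already reported. With dim probe sets left out ZBP1 had no value.

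With 2 arrays a condition from 1 line and 1 time point per agent, changes under 2-fold, as for DHX58, IKBKE and MAVS, lie at the limit of what was called, and changes near background, as for ZBP1 and IFNB1, have no reliable size.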
